A study of Mus musculus with 36 samples.

Results

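The AP-1 family genes described here were Fos, Fosb, Fosl1, Fosl2, Jun, Junb, Jund and Atf3, which are 8 of the 22225 protein-coding genes of the annotation used (GENCODE vM1 on the mouse build mm9). They were chosen by name as a gene family and not by any measured value, but with earlier results of these data known. For each gene and each of 9 peak lists from ChIP-seq, which sequences the DNA that is precipitated with a protein, a peak was counted when its midpoint lay in the gene body or within 50 kb of it. Lists were available here for 9 of the 36 samples of the series. MBD3 and CHD4 belong to NuRD, a complex that remodels nucleosomes and deacetylates histones. They were each profiled in 2 replicates of wild-type R1 embryonic stem cells (ESCs), a mouse line grown in serum and LIF with 2i, and once in neural progenitor cells (NPCs) derived from R1 ESCs and kept in NPC medium. SIN3A, the scaffold of another histone deacetylase complex, was profiled in wild-type R1 ESCs in 1 sample without and 1 sample with spike-in chromatin. The zinc finger protein ZFP296 was precipitated through a GFP tag from ESCs labelled as an R1 line with a ZFP296 BAC, whereas the study's methods describe a plasmid with GFP-tagged ZFP296 complementary DNA in KH2 ESCs. Neither RNA nor cell markers were part of these lists, so the cell identities were taken as labelled.

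AP-1 is a dimeric transcription factor in which a JUN protein pairs with another JUN protein, a FOS protein or a member of the ATF group through a leucine zipper. The dimers bind a short palindromic element, the TPA response element, and ATF-containing dimers also bind the related cyclic AMP response element (CRE). Several of the genes, Fos and Jun among them, are immediate early genes that growth factors, serum and stress induce within minutes, whereas Jund is expressed more constantly.

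Some properties of the lists bear on every comparison. The lists held 2344 and 7551 MBD3 peaks and 11712 and 29974 CHD4 peaks in ESC replicates 1 and 2, against 2304 MBD3 and 20234 CHD4 peaks in NPCs. Every one of the 29974 peak names of ESC CHD4 replicate 2 refers to a Zfp219 BAC, although its labels give wild-type cells. With 1 NPC list and 2 ESC lists per factor and no read counts, no test between cell types was run. A member was called higher or lower in NPCs only when its NPC count lay outside the range of both ESC counts, and the share of all 22225 genes that this rule called is given as the background. The windows of Fos and Jun held no other protein-coding gene, those of Fosl2 and Atf3 held 1, and those of Jund, Fosb, Junb and Fosl1 held 4, 7, 8 and 10. Peaks in the latter windows, and also at Fosl2, may lie closer to another gene.

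The family carried MBD3 and CHD4 peaks in both cell types, with counts and positions that differed by member. CHD4 peaks were found near 5 and 8 of the 8 members in the ESC replicates and near 8 in NPCs. MBD3 peaks were found near 4 and 4 members in ESCs and 5 in NPCs. Over all genes the median was 0 and 2 CHD4 peaks in ESC replicates 1 and 2 and 1 in NPCs. A CHD4 peak in ESC replicate 2 or in NPCs was therefore common. Of all genes, 42.1% had a CHD4 peak in both ESC lists and 12.8% an MBD3 peak in both. An NPC MBD3 peak was found near 15.7% of all genes. Near the 8 genes, 33 and 60 CHD4 peaks were found in the ESC replicates and 48 in NPCs, which is 28.2, 20 and 23.7 per 10000 peaks of each list. MBD3 gave 9 and 10 peaks in ESCs and 7 in NPCs, or 38.4, 13.2 and 30.4 per 10000 list peaks. The FOS family genes held 8 and 24 CHD4 peaks in ESCs and 23 in NPCs, and the JUN family genes 25 and 32 in ESCs and 21 in NPCs. Fosl1, Fosl2 and Jun had more CHD4 peaks in NPCs than in either ESC list (3 of 8 members, background 19.8% of all genes). Fosb, Junb and Jund had fewer (3 of 8, background 20.6%), and Fos and Atf3 lay within the ESC range. For MBD3, Fosl1 and Jun were higher in NPCs (2 of 8, background 7.95%), and Fos, Junb and Jund were lower (3 of 8, background 10.3%). All 3 of these lower MBD3 calls were lost (0 of 8) with lists trimmed to equal size, and again with peaks of value 10 or more. Fosb, Fosl2 and Atf3 lay within the range for MBD3. Among genes with a peak in at least 1 of the 3 lists, the same rule called 25.9% higher and 26.9% lower for CHD4, and 18.5% higher and 23.9% lower for MBD3, so for most members a call of this kind was a common outcome. Without ESC CHD4 replicate 2, Fos and Atf3 joined the members with more CHD4 peaks in NPCs, which made 5.

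**Figure D1:**
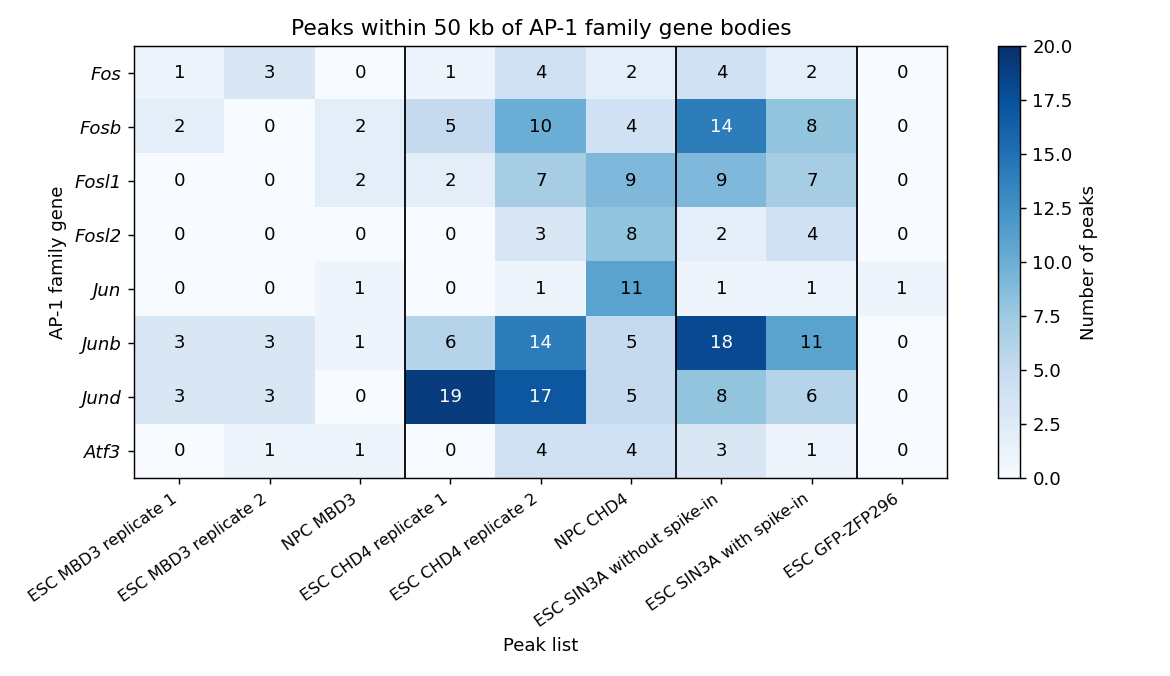
Number of peaks within 50 kb of each AP-1 family gene body (rows) in each of the 9 peak lists (columns), with the count printed in each cell. Jun and Fosl2 stand out for 11 and 8 CHD4 peaks in NPCs against 0 to 3 in ESCs, and Jund for 19 and 17 CHD4 peaks in ESCs against 5 in NPCs.

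The gaps differed in size. Jun had 10 more CHD4 peaks in NPCs than in the higher ESC list, and 0.342% of all genes had a gap as large in that direction. For Fosl2 the gap was 5 peaks (2.66% of genes) and for Fosl1 it was 2 (11.6%). Jund had 12 fewer CHD4 peaks in NPCs than in the lower ESC list, as 0.499% of genes did, whereas Fosb and Junb were each lower by a single peak (20.6%). For MBD3 the gaps were small because peaks were few. Jund was lower by 3 (1.16% of genes), Junb by 2 (3.07%) and Fos by 1 (10.3%), while Fosl1 was higher by 2 (1.64%) and Jun by 1 (7.95%). Where the ESC replicates differed, the gap depended on which was used. Without ESC replicate 2, the CHD4 gap rose to 7 for Fosl1 and 8 for Fosl2, and without replicate 1 it was -6 for Fosb, -9 for Junb and, for MBD3 at Fos, -3.

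**Figure D2:**
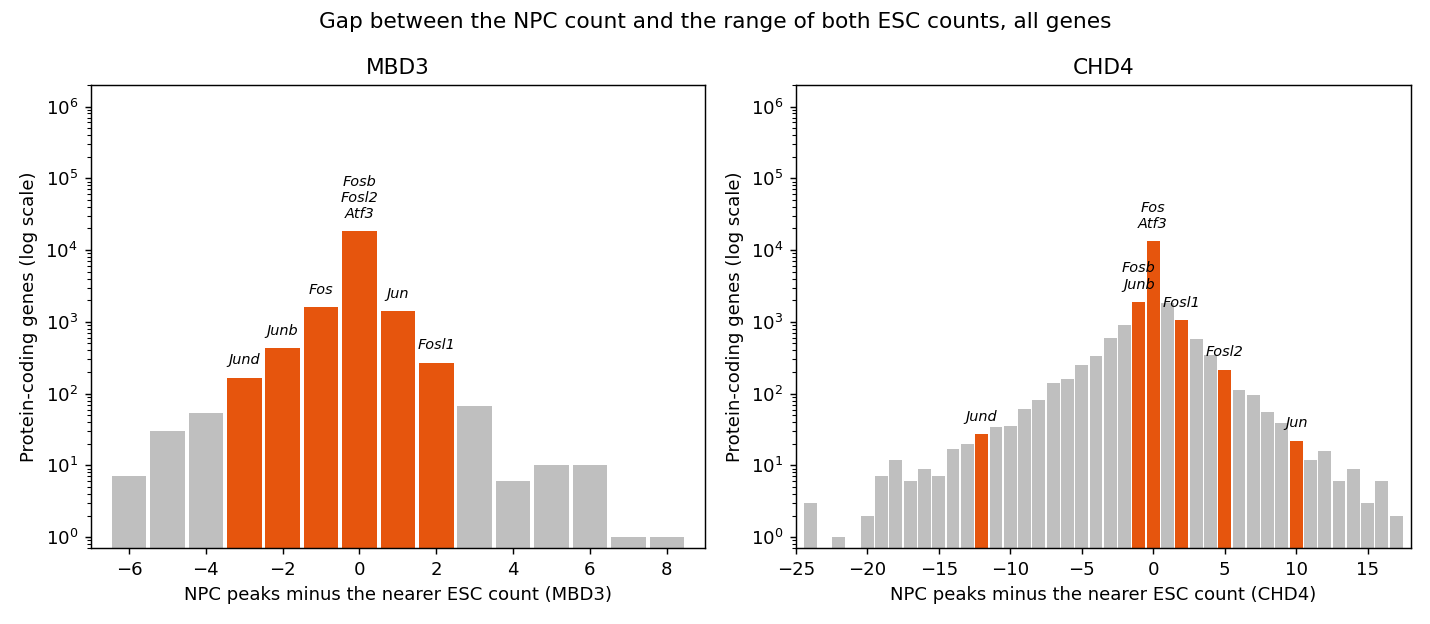
Gap between the NPC peak count and the nearer of both ESC counts (x axis, peaks; 0 when the NPC count lies within the ESC range) for all 22225 protein-coding genes (y axis, log scale), for MBD3 on the left and CHD4 on the right. Orange bars hold the named AP-1 family genes; for CHD4, Jun at 10 and Jund at -12 lie in the tails.

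Many of the NPC peaks near these genes held the canonical AP-1 element itself. The string TGACTCA, or its reverse complement, was present in the central 200 bp of 23 of 48 NPC CHD4 peaks near the family (47.9%, 95% exact interval 33.3 to 62.8) and of 3 of 7 NPC MBD3 peaks (42.9%, 9.90 to 81.6). These shares were close to those of the whole NPC lists, 42.3% for CHD4 and 47.7% for MBD3, so peaks near the family did not stand apart from their lists. In ESCs the string was found in 0 of 33 and 4 of 60 CHD4 peaks near the family (0 to 10.6% and 1.85 to 16.2%) and in 0 of 9 and 0 of 10 MBD3 peaks (up to 33.6% and 30.8%), with 3.59 to 4.69% in the whole lists. It was found near each of the 8 genes in the NPC CHD4 list, in 5 of 11 peaks at Jun, 4 of 9 at Fosl1, 4 of 8 at Fosl2, 3 of 5 at Jund, 3 of 4 at Fosb, 2 of 5 at Junb, 1 of 4 at Atf3 and 1 of 2 at Fos. The CRE string TGACGTCA was found in 0 of the 48 NPC CHD4 peaks (up to 7.40%, whole list 0.544%) and the POU5F1 octamer string ATGCAAAT in 0 (whole list 0.806%). The SOX2 string CCATTGT was found in 1 (2.08%, 0.0527 to 11.1; whole list 3.74%), the NPC CHD4 peak 7.01 kb upstream of Fosl1. The intervals cover counting error only, and a string is not by itself a bound site.

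**Figure D3:**
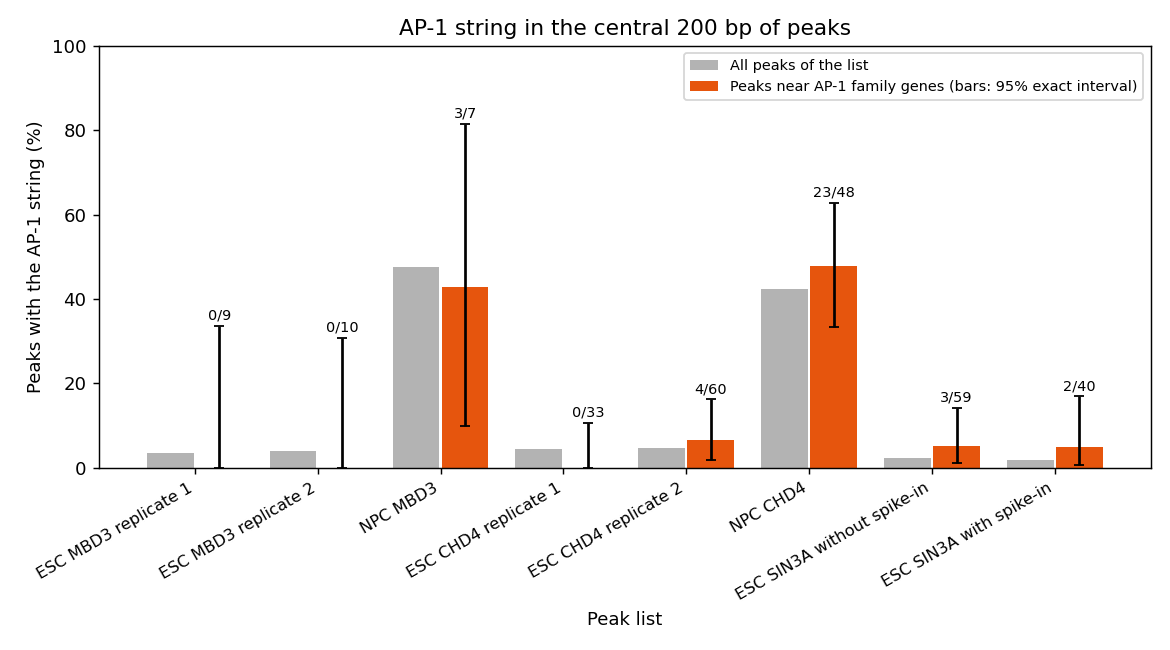
Share of peaks with the AP-1 string in their central 200 bp (y axis, percent) in 8 peak lists, for the whole list (grey) and for peaks near AP-1 family genes (orange, with 95% exact intervals and counts). Both NPC lists lie above 40% in grey and orange, and the ESC lists below 7%.

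To show these sites, 1 stretch of 97 bases on mm9 is given for each gene, written 5′ to 3′ on the strand on which the string reads TGACTCA, with the central string in capitals. The Fosb and Fosl1 stretches lie under the highest NPC MBD3 peak with the string at each gene, and the others under the highest NPC CHD4 peak with the string.
Fos (chr12:86860630-86860726, plus strand): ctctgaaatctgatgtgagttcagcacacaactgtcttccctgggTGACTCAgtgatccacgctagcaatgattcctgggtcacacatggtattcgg
Fosb (chr7:19902304-19902400, plus strand): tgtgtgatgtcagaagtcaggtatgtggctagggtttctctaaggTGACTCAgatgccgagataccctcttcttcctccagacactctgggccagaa
Fosl1 (chr19:5433518-5433614, plus strand): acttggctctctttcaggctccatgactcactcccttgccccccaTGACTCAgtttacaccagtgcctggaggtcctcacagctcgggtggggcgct
Fosl2 (chr5:32498401-32498497, minus strand): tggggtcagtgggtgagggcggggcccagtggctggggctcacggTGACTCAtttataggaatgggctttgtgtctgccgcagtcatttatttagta
Jun (chr4:94750870-94750966, plus strand): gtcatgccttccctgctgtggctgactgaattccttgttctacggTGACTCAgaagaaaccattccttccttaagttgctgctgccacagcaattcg
Junb (chr8:87509605-87509701, minus strand): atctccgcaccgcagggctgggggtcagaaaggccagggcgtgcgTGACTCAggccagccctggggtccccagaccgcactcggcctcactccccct
Jund (chr8:73226811-73226907, plus strand): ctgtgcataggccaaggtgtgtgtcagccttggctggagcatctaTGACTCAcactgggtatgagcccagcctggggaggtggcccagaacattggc
Atf3 (chr1:193046022-193046118, minus strand): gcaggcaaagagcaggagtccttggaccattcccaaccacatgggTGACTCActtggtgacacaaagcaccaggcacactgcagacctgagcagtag

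Among the FOS family genes, Fos, the prototype member, had at most 4 peaks in any list. ESC MBD3 replicates 1 and 2 had 1 and 3 peaks and NPCs none, CHD4 had 1 and 4 in ESCs and 2 in NPCs, and SIN3A had 4 and 2. A site 22.1 kb upstream (chr12:86792637-86792836, intergenic) was the only one called for MBD3 in both ESC replicates. It overlapped CHD4 peaks of both ESC replicates, which were the highest ESC CHD4 peaks of this gene at 7.40 and 20.2, and no NPC peak. Here and below such values are the authors' −log10 scores, which are compared only within a list. Both NPC CHD4 peaks lay elsewhere, and of the whole NPC CHD4 list only 15.6% overlapped an ESC CHD4 peak. One was 0.386 kb upstream of the start site, with a value of 6.81, and the other 45.9 kb downstream, with a value of 20.4 that only 5.49% of the NPC CHD4 list reached, under the Fos sequence above.

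Fosb, which encodes a FOS protein known for its induction in neurons, had 2 and 0 MBD3 peaks in the ESC replicates and 2 in NPCs. CHD4 gave 5 and 10 in ESCs and 4 in NPCs. A peak 30.3 kb downstream in a coding exon of the neighbouring gene Ppm1n was called for MBD3 in NPCs (value 11.6) and in ESC replicate 1 (18.2, rank 107 of 2344), but it overlapped no NPC CHD4 peak. The second NPC MBD3 peak, 6.90 kb upstream (chr7:19902166-19902429, value 9.66), coincided with an NPC CHD4 peak of 14.9 and held the string shown for Fosb, and no ESC list had a peak there. The highest CHD4 peaks were in an intron of Rtn2 at 27.1 kb in ESC replicate 1 (11.6), in intergenic sequence at 28.1 kb in replicate 2 (21.4), and in an intron of Vasp at 40.9 kb in NPCs (24.1). Counting only CHD4 peaks with a value of at least 10 turned the direction for Fosb, to 1 and 3 in ESCs and 4 in NPCs.

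Fosl1 encodes FRA1, a FOS protein without a classical transactivation domain. MBD3 peaks were absent from both ESC lists, and 2 were called in NPCs, 17.7 and 14.1 kb upstream (chr19:5429942-5430153 and chr19:5433477-5433740, values 7.73 and 10.6). Both held the AP-1 string, and both overlapped NPC CHD4 peaks, but no ESC CHD4 peak. CHD4 gave 2 and 7 peaks in ESCs and 9 in NPCs. A CHD4 peak about 7.01 kb upstream was shared by all 3 CHD4 lists, and it was the highest at this gene in both ESC replicates (13.8 and 25.2). In NPCs the highest was the peak 14.2 kb upstream (19.3). The nearest start site of the upstream MBD3 pair belonged to another gene, AI837181.

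Fosl2 encodes FRA2, the closest relative of FRA1. No MBD3 list had a peak in its window. CHD4 had 0 and 3 peaks in ESCs and 8 in NPCs, a count that 3.48% of all genes reached. The 3 ESC peaks lay 0.601 to 1.35 kb upstream of the start site, with values of 4.51 to 8.0. None of the 8 NPC peaks overlapped them, and of the whole NPC CHD4 list 15.6% overlapped an ESC CHD4 peak. The NPC peaks lay from 46.7 kb upstream to 63.8 kb downstream of the start site, with values of 6.02 to 16.9. The highest NPC peak, 59.5 kb downstream, is the one shown above, and its nearest start site was that of Plb1. Only 1 of the 8 NPC peaks had the Fosl2 start site as its nearest. Counting only such peaks gave 0 and 3 in ESCs and 1 in NPCs, which is within the ESC range. With a window of 20 kb the counts were 0 and 3 in ESCs and 3 in NPCs, and the NPC count no longer lay above the ESC range.

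Jun, which encodes the central AP-1 subunit c-JUN, had the largest excess of NPC over ESC CHD4 peaks in the family. CHD4 peaks numbered 0 and 1 in ESCs and 11 in NPCs, and 0.981% of all genes had 11 or more NPC CHD4 peaks. The single ESC peak lay 1.25 kb upstream with a value of 4.89. None of the 11 NPC peaks overlapped it, and of the whole NPC CHD4 list 15.6% overlapped an ESC CHD4 peak. For 10 of the 11, the nearest start site was that of Jun itself. The NPC peaks formed groups 16.6 to 26.2 kb downstream and 31.9 to 48.7 kb upstream, plus a pair 0.228 and 0.604 kb upstream of the start site and 1 peak at 50.6 kb. Their values ranged from 6.16 to 15.8 with a median of 7.62, below the list median of 9.06, so the gene stood out by the number of its peaks and not by their values. The highest, 26.2 kb downstream, coincided with the only MBD3 peak of the gene, called in NPCs (chr4:94692723-94692885, value 6.19). SIN3A had 1 peak in each list. The 5 genes whose counts over the 9 lists were most like those of Jun, by Euclidean distance of log2(count + 1), were Slc38a6 at 0.263, Dnm3 at 1.00, Dph5 at 1.01, 5033411D12Rik at 1.03 and Hbq1a at 1.08. These had 8 to 11 NPC CHD4 peaks each.

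Junb encodes a JUN protein that can restrain c-JUN activity. MBD3 gave 3 and 3 peaks in ESCs and 1 in NPCs, CHD4 gave 6 and 14 in ESCs and 5 in NPCs, and SIN3A gave 18 and 11, its highest counts in the family. The NPC MBD3 peak, 7.16 kb upstream (chr8:87509456-87510099, 644 bp), had a value of 53.1 and ranked 5 of the 2304 peaks of the NPC list. No other MBD3 peak near a member ranked as high in its list. The NPC CHD4 peak at the same place had a value of 37.8 (rank 106 of 20234) and held 3 AP-1 strings in its central 200 bp, the central one of which is printed for Junb above. The NPC MBD3 peak held no such string in its own central 200 bp, although the printed stretch lies within its bounds. It was therefore not counted among the NPC MBD3 peaks with the string. The site was not specific to NPCs. It overlapped MBD3 and CHD4 peaks of both ESC replicates and both SIN3A lists, and lacked only ZFP296. The ESC MBD3 values there were 3.94 and 7.94 (ranks 2289 of 2344 and 4133 of 7551), so the site ranked lower in both ESC MBD3 lists than in the NPC list. Its ESC CHD4 values were 8.88 (rank 4763 of 11712) and 23.3 (rank 989 of 29974), and its highest SIN3A values 28.9 without spike-in (rank 786 of 16170) and 19.2 with it (rank 820 of 11422), so it stood among the higher peaks of some ESC lists too. The highest CHD4 peak near Junb was 2.30 kb downstream in ESC replicate 1 (11.3) and in a coding exon of Best2, 29.1 kb upstream, in replicate 2 (32.1). The nearest start site of the shared site was that of Hook2, 8 other genes sharing the window. Per 10000 list peaks, the MBD3 counts of Junb were 12.8 and 3.97 in ESCs and 4.34 in NPCs, which is within the ESC range.

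Jund had 3 and 3 MBD3 peaks in ESCs and none in NPCs. CHD4 peaks numbered 19 and 17 in ESCs and 5 in NPCs, and 0.288% of all genes had 17 or more in the lower ESC list. Of the 19 peaks of ESC replicate 1, 14 overlapped a peak of replicate 2. None of the 5 NPC peaks overlapped either list, and of the whole NPC CHD4 list 15.6% did. The highest ESC CHD4 peak lay just upstream of the gene in both replicates, 1.08 kb from the start site in replicate 1 (18.8) and 1.06 kb in replicate 2 (30.9, rank 337 of 29974). The highest NPC CHD4 peak was 5.19 kb downstream with a value of 11.6. Only 4 of the 19 and 3 of the 17 ESC peaks had the Jund start site as their nearest, and many lay near Pgpep1 and Lsm4. With a window of 20 kb, 7 and 4 CHD4 peaks in ESCs stood against 4 in NPCs, so most of the contrast lay in the outer part of the window. Among peaks whose nearest start site was that of Jund, however, 4 and 3 in ESCs stood against 0 in NPCs, and the call was kept. An MBD3 site 5.59 kb upstream (chr8:73215906-73216184) was called in both ESC replicates, with values of 4.65 and 4.64, and overlapped CHD4 peaks of both. It was the highest of the 3 family sites found in both ESC MBD3 lists by the value in replicate 1 and the lowest by that in replicate 2, where the Fos and Junb sites had 9.16 and 7.94. Its central 200 bases are given for comparison with the NPC sites. They held none of the AP-1, CRE, octamer or SOX2 strings, so no base is in capitals.
Jund (chr8:73215945-73216144, plus strand): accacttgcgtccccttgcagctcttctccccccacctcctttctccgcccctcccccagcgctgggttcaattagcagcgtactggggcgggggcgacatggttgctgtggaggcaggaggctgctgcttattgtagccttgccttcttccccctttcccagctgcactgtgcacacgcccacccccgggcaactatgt

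Both genes lie on chromosome 8, whose share of autosomal peaks varied between lists, from 9.38% and 4.17% for MBD3 in ESC replicates 1 and 2 to 5.43% in NPCs, and from 8.17% and 7.74% for CHD4 in ESCs to 5.14% in NPCs. Per 1000 chromosome 8 peaks of each list, Jund had 20 and 7.37 CHD4 peaks in ESCs and 4.84 in NPCs, and Junb had 6.31, 6.07 and 4.84. For MBD3, Junb had 13.8 and 9.62 in ESCs and 8.0 in NPCs, and Jund had 13.8, 9.62 and 0. All 4 comparisons kept their direction on this scale. For MBD3 at Jund this could not have come out otherwise, because an NPC count of 0 stays 0 on any scale.

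Atf3 encodes a stress-induced member of the ATF group that dimerizes with JUN proteins. Its counts lay within the ESC range, with 0 and 1 MBD3 peaks in ESCs and 1 in NPCs, and 0 and 4 CHD4 peaks in ESCs and 4 in NPCs. The positions differed, as they did for most NPC CHD4 peaks. None of those at Atf3 overlapped an ESC CHD4 peak, and 15.6% of the whole NPC CHD4 list did. The ESC MBD3 peak of replicate 2 was 6.88 kb upstream, on the highest ESC CHD4 peak of the gene (11.8), whereas the NPC MBD3 peak was 0.159 kb upstream of the start site (chr1:193007297-193007459, value 6.56). The highest NPC CHD4 peak (16.5) lay 38.8 kb upstream and is shown above.

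**Figure D4:**
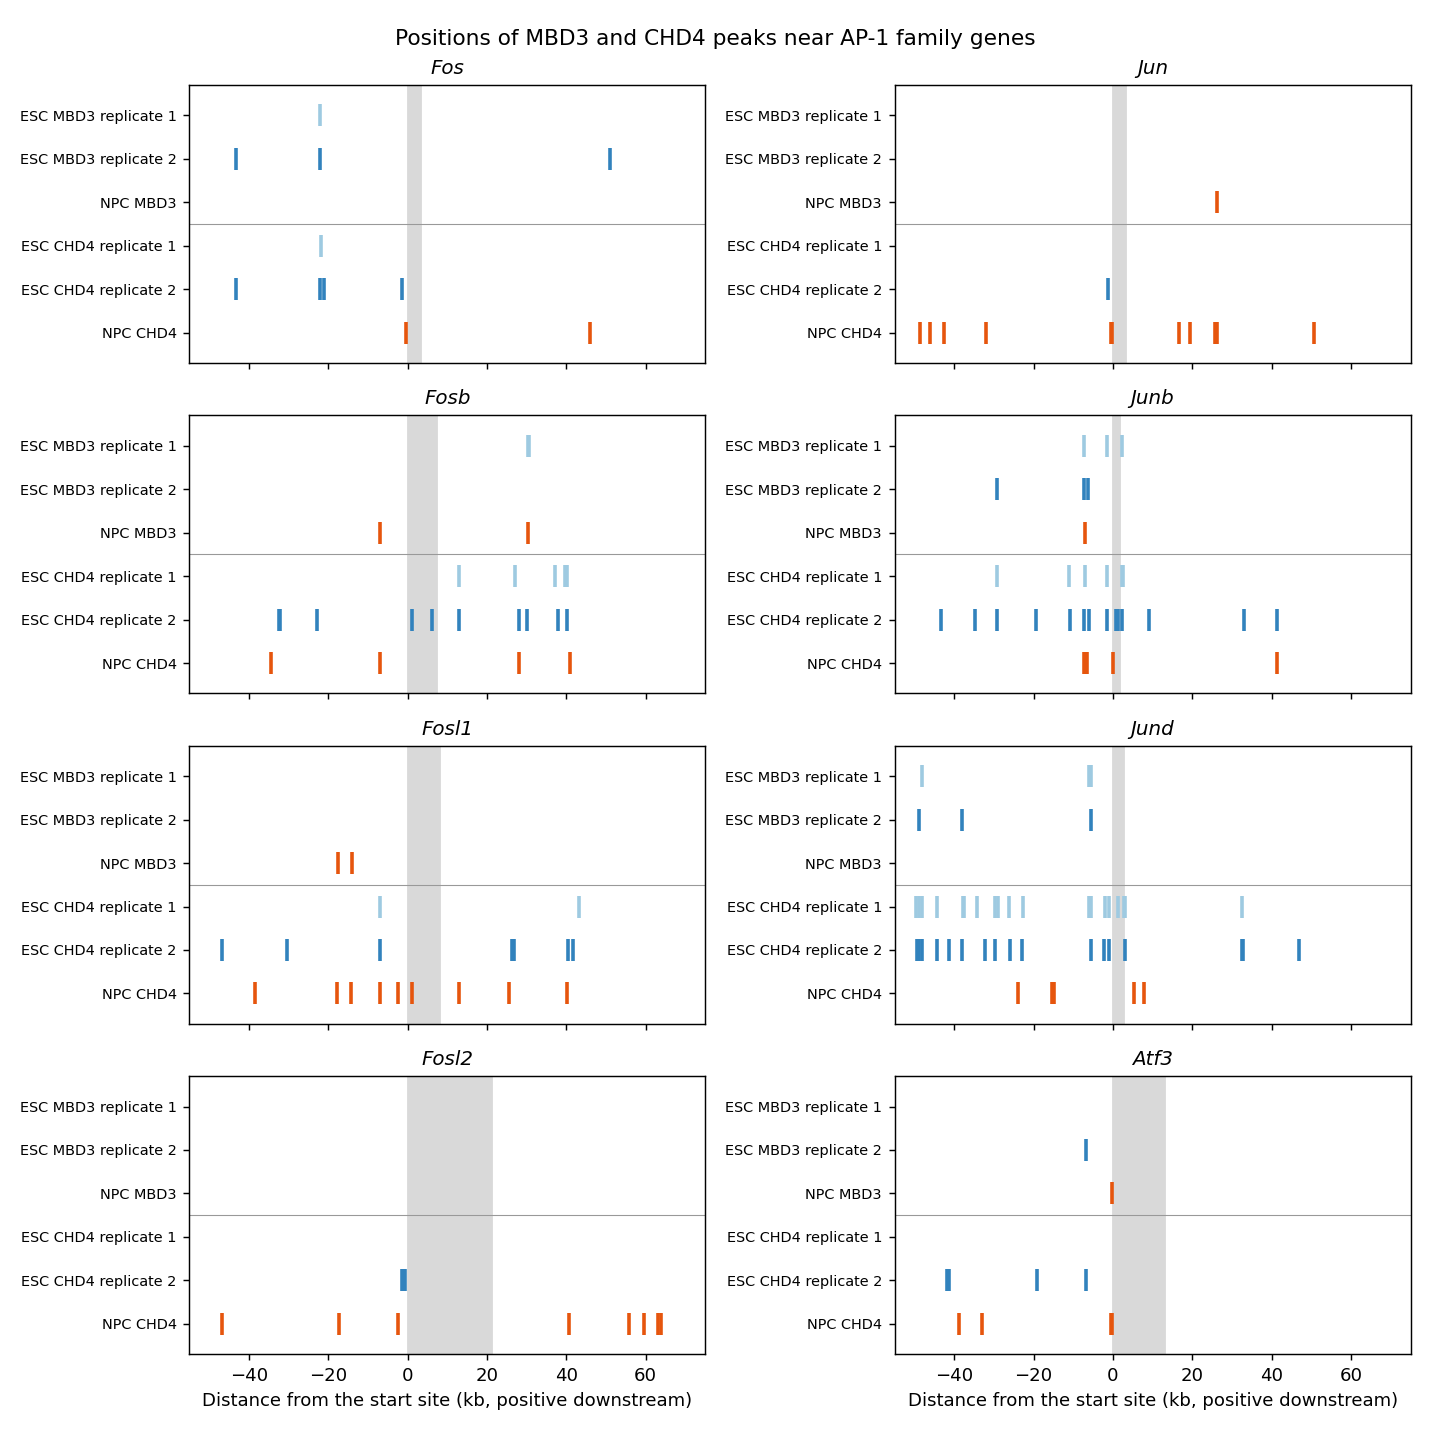
Positions of MBD3 and CHD4 peaks around each AP-1 family gene (x axis, distance of the peak midpoint from the start site in kb, positive downstream; grey, gene body), with 1 line per list, ESC replicates in blue and NPCs in orange. NPC peaks at Jun and Fosl2 fall where the ESC lines are empty, and the ESC peaks upstream of Jund have no NPC counterpart at the same positions. Of the whole NPC CHD4 list, 15.6% of peaks overlapped an ESC CHD4 peak.

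Within 1 kb of the start sites, a limit chosen after the values were seen, CHD4 was called at more members in NPCs than in ESCs. Within 1 kb of the start site, NPC CHD4 peaks were found at 4 of 8 members (background 11.1% of all genes), namely Fos, Jun, Junb and Atf3. ESC CHD4 had none in replicate 1 (background 7.13%) and in replicate 2 had peaks at Fosl2 and Junb (background 19.8%). NPC counts in this narrow window were above both ESC lists at 3 members, Fos, Jun and Atf3 (background 5.12%), and below at none (background 3.34%). The values of these NPC CHD4 peaks were modest. They were 6.81 at Fos, 7.03 for both peaks at Jun, 6.88 at Junb (0.0815 kb upstream), and 9.40 and 7.88 at Atf3 (0.118 and 0.392 kb upstream). Those in ESC replicate 2 were 4.57 and 4.51 at Fosl2 and 5.34 in the Junb coding exon, 0.733 kb downstream. The contrast depends on the limit, because ESC CHD4 peaks of other members lay just outside it. In replicate 2 they were 1.06 kb from the start site at Jund (value 30.9), 1.20 kb at Fosb, 1.25 kb at Jun and 1.53 kb at Fos. Replicate 1 had a peak 1.08 kb from that of Jund, and NPCs had 1 at 1.21 kb from that of Fosl1. MBD3 was called at a start site only in NPCs and only at Atf3 (1 of 8, background 1.96%), within the lists examined. No ESC MBD3 list had such a peak (background 1.86% and 2.45%). The MBD3 count was thus above both ESC lists at Atf3 (background 1.31%) and below them at no member (0.459%).

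The start-site regions of Atf3 and Jun are shown because they hold these NPC peaks. Each stretch gives the 300 bases before the start site in gene orientation on mm9, with the bases under the NPC MBD3 peak of Atf3 and under the nearest NPC CHD4 peak of Jun in capitals. The capitals run from 240 to 78 bases upstream of Atf3. At Jun they end 102 bases upstream, and that peak continues to 354 bases. The variant element TGACATCA, a known JUN and ATF binding site of the Jun promoter, was looked for after the sequence had been seen. It was found 45 to 38 bases upstream of Jun, outside the peaks of all 9 lists, and occurs in 3.62% of 32851 RefSeq promoters (GRCm38.p6, 250 bases before to 50 after the start).
Atf3 (chr1:193007220-193007519, minus strand): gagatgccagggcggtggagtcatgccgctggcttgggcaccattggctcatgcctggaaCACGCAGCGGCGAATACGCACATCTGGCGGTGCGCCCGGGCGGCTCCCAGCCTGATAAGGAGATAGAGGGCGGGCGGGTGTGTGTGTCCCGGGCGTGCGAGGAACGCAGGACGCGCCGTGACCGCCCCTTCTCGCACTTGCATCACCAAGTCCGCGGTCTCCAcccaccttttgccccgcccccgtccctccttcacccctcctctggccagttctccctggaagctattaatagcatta
Jun (chr4:94718914-94719213, minus strand): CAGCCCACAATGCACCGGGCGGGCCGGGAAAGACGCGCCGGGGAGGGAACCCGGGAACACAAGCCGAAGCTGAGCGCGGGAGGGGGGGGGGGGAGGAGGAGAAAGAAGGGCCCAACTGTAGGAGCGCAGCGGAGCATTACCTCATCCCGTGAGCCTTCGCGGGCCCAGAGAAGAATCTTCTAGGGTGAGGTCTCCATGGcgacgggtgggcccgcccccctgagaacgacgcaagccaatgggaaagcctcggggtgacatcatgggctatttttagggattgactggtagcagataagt

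Of the family, 7 genes had a RefSeq promoter entry, and none of those held the AP-1 string (5.2% of all promoters) or the CRE string (1.79%). The octamer was in none (1.74%), and the SOX2 string was in that of Jund alone (3.66%), past the start site.

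SIN3A was called at the start sites of most members. All 8 members had SIN3A peaks within 50 kb in both lists (background 56.7%), with 59 peaks without and 40 with spike-in. Within 1 kb of the start site, SIN3A was called at the same 6 members in both lists (background 38.8% without and 31.6% with spike-in), that is at all but Jun and Jund. At these genes the nearest SIN3A peaks lay just outside this limit, which was chosen after the values were seen. For Jund they were 1.09 kb downstream without spike-in (value 28.5) and 1.16 kb upstream with it (10.1). For Jun they were 1.44 and 1.46 kb downstream (8.28 and 5.03). Within the limit, the highest peak was at Fosb, 0.185 kb upstream, with a value of 60.4 (rank 105 of 16170) without spike-in, and 0.276 kb upstream with 25.3 with spike-in. At Fos the peaks lay on the start site, 0.0150 and 0.0390 kb from it, with values of 19.2 and 10. The list with spike-in had a second Fos peak 0.394 kb upstream (4.90). Fosl1 had a peak 0.0210 and 0.0460 kb upstream (20.6 and 9.55). At Fosl2 there were 2 peaks without spike-in (16.7 and 6.0) and 3 with it (14.7, 5.86 and 3.98). At Junb the values were 26.0 and 8.39 without and 6.72 and 3.12 with spike-in, and at Atf3 they were 19.2 and 10.7 without and 5.86 with spike-in. SIN3A was not profiled in NPCs. Of the 48 NPC CHD4 peaks near the family, 10 overlapped an ESC SIN3A peak (20.8%, 10.5 to 35; whole list 10.7%), compared with 6 that overlapped an ESC CHD4 peak (12.5%, 4.73 to 25.2; whole list 15.6%).

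ZFP296 gave a single peak in the family. Of 3102 peaks, 1 lay within 50 kb of a member, so 1 of 8 genes was reached (background 21.9%). This peak was in the 5′ untranslated region of Jun, 0.497 kb from the start site (chr4:94718233-94718599), with a value of 6.36, rank 2272 in its list. It overlapped no MBD3, CHD4 or SIN3A peak. Jun was thus the only member with ZFP296 at its start site (background 2.34%).

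MBD3 and CHD4 peaks coincided to the extent seen elsewhere. Of the 7 NPC MBD3 peaks near the family, 6 overlapped an NPC CHD4 peak (85.7%, 42.1 to 99.6; whole list 84.9%). In ESCs 8 of 9 and 9 of 10 MBD3 peaks overlapped a CHD4 peak of either replicate (88.9% and 90.0%, whole lists 89.6% and 75.2%). Between ESC replicates, 24 of 33 CHD4 peaks of replicate 1 were found again in replicate 2 (72.7%, 54.5 to 86.7; whole list 70.4%), as were 3 of 9 MBD3 peaks (33.3%, 7.49 to 70.1; whole list 64.3%). In the other direction, 3 of 10 MBD3 peaks of replicate 2 were found in replicate 1 (30%, 6.67 to 65.2; whole list 20.7%).

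Lists of genes related to AP-1 gave mixed directions. Of 16 bZIP partners of AP-1, 4 had more CHD4 peaks in NPCs than in either ESC list (Bach1, Bach2, Batf3 and Maf) and 2 had fewer (Batf and Nfe2l2). Of 11 genes of the JNK pathway, which phosphorylates c-JUN, 4 were higher (Mapk8, Map2k4, Dusp10 and Dusp16) and 1 was lower (Map2k7). Of 13 other immediate early genes and regulators, Egr2, Egr3 and Ier3 were higher and Egr1, Ier2 and Nr4a1 lower. Known AP-1 target genes had the most higher calls, 7 of 16 (Cd44, Plau, Mmp3, Mmp10, the collagenase gene Mmp13, Vim and Hbegf), while Plaur, Mmp9 and Spp1 were lower. Whether the windows of Mmp3, Mmp10 and Mmp13 shared peaks was not examined, so these calls may not be independent. The CHD4 counts of the 4 lists stand against 19.8% higher and 20.6% lower among all genes. For MBD3, 2 and 2 of the bZIP partners were higher and lower, none of the JNK pathway genes in either direction, 2 and 5 of the immediate early genes, and 3 and 2 of the targets, against 7.95% higher and 10.3% lower among all genes. The median number of NPC CHD4 peaks was 5 in the family and 5 in the target genes, 3 in the bZIP partners, 2 in the immediate early genes and 1 in the JNK pathway genes, against 1 over all genes. In ESC replicates 1 and 2 the family medians were 1.5 and 5.5, against 0 and 2 over all genes.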

How the data were processed

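ChIP-seq peak lists of 9 samples were analysed, and the other 27 samples (inputs, histone marks, and wild-type and Zfp296 knockout samples with spike-in) were not analysed here. Sample titles gave the groups. Reads were aligned to mm9 with BWA by the authors, who kept uniquely mapped reads and called peaks per sample with MACS2 (version 2.0 in the submitters' processing notes) against input. The deposited value of each peak is a −log10 score, of a p-value or q-value that is not stated. Thresholds of 0.001 (0.0001 for SIN3A without spike-in) stand in the peak names, and the names of all but the SIN3A lists mention equal read numbers. Read depths are not in the lists, so peak numbers were not corrected for depth.

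Peaks were assigned by midpoint to windows of 50 kb around gene bodies (GENCODE vM1), and overlap required 1 bp. Each string was looked for in the central 200 bp of a peak, on either strand. Shares carry 95% Clopper-Pearson intervals. The counting was tested on simulated peaks. All 8 members, all NPC MBD3 peaks, ESC MBD3 peaks found in both replicates, start-site peaks and the highest CHD4 peak per member and list were named. The 1 kb calls, the scaling by list size and the chromosome 8 scaling, the choice of NPC CHD4 sequences and the upstream sequences were added after the values were seen. The members and lists were chosen with earlier results of these data known. Work was done in Python 3.11.15 with scipy 1.17.1, numpy 2.4.6, matplotlib 3.10.9 and pyfaidx 0.9.0.4.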

Additional observations from a re-analysis of the deposited data

How the results depend on the processing

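Of the 16 member and factor pairs, 11 lay outside the ESC range. These calls did not change with windows of 100 kb or with any overlap in place of midpoints. At 20 kb, 7 were kept, and those lost included Fosl2 and Jund for CHD4. Counting only peaks whose nearest start site is the member also kept 7, losing Fosl2 for CHD4 among others. With lists trimmed to equal size, 7 were kept, 0 members had fewer MBD3 peaks in NPCs, and Jun, Fosl2, Fosl1, Junb and Jund kept their CHD4 calls. With values of at least 10, 5 were kept, members with more and fewer MBD3 peaks numbered 1 and 0, and those with fewer CHD4 peaks 1. Fosb then reversed for CHD4, with 1 more peak in NPCs than in the nearer ESC list, and no ZFP296 peak was left. Per 10000 list peaks (chosen after seeing the data), 10 calls were kept and 4 members had more MBD3 peaks. Calls with 0 peaks in NPCs or in both ESC lists could not change by this scaling. Within 1 kb of the start site (also chosen afterwards), 1 call was kept, that of Jun for CHD4, 10 were lost and 3 were gained. There, 1 member had more MBD3 peaks, and 0 had fewer MBD3 or CHD4 peaks. Leaving out either ESC replicate kept all 11 calls, but this could not have come out otherwise. A count outside the range of both ESC lists also lies outside each of them, so calls could only be gained. Members with more CHD4 peaks then ranged from 3 to 5 (5 without replicate 2), those with fewer CHD4 peaks from 3 to 4, and those with more or fewer MBD3 peaks were 3 and 3 in either case. The overlap of NPC MBD3 with NPC CHD4 peaks was 100% at 20 kb and 100% for nearest start sites, where fewer peaks remain. In the central 100 bp, the AP-1 string was in 27.1% of NPC CHD4 peaks near the family and in 28.6% of the whole list. The CHD4 call of Jun was kept under every alternative run. Causes were not tested. No paired analysis was possible because the NPC lists carry no replicate number and the results come from no test. The single NPC list per factor, the unknown depths and the Zfp219 BAC names of ESC CHD4 replicate 2 limit all comparisons of cell types.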
